A study of Rattus norvegicus with 2 samples.

Results

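The shortest regular class of acetylated regions in this list was formed by the peaks of exactly 500 bp on the numbered chromosomes. They were chosen by the length in the deposited coordinates, end minus start. There were 5524 of them among the 32205 peaks on the 20 numbered chromosomes, or 17.2%, and the whole list holds 32996 peaks. A further 171 peaks of this length lie on X and are not described here. Peaks came from ChIP-seq (sequencing of immunoprecipitated chromatin) for histone H3 acetylated at lysine 27 (H3K27ac), in sciatic nerve of Sprague Dawley rats at postnatal day 15. Nerves of several animals were combined, and 1 immunoprecipitated library and 1 library of input chromatin were made. The labels give no genotype, treatment or second age, so there were no conditions to compare. Only the list of acetylated peaks was analysed here, and it holds no separate values for the input.

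H3K27ac is laid down on nucleosomes at active promoters and enhancers by the acetyltransferases p300 and CBP. Acetylated nucleosomes often flank a nucleosome-depleted site where transcription factors bind, and neighbouring enhancers of highly active genes can form clusters. At this age Schwann cells of the nerve are building myelin around axons, while fibroblasts, endothelial cells and immune cells are also present in the tissue. The list describes all of these cells together. A short peak can therefore come from a short acetylated region in many cells or from few cells of the tissue, and these cannot be told apart in a list of positions.

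The length of 500 bp stood apart from the rest of the list, and this is what the selection used. Just above it there was an empty range, and the next length was 625 bp, with 110 peaks, which was also the most common length among the longer peaks. From there to under 750 bp lay 2596 peaks. Just below 500 bp there was a single peak of 426 bp, on chromosome 15 from 114571109 to 114571534, with its nearest neighbour 531.8 kb away. The 500 bp peaks covered 2.76 Mb, or 3.81% of the acetylated length on these chromosomes. The median of the 26680 longer peaks was 1837 bp. How this length arose in peak calling is not stated, and the width of the acetylated region inside such a peak was not measured.

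The question was whether these shortest regions accompany longer ones, gather together or stand alone. Distances were measured from edge to edge, and a neighbour was any peak within 12500 bp, a distance in common use for joining enhancers into clusters. Peaks of 500 bp had a neighbour of any length, and a longer neighbour, less often than the peaks of the list as a whole. Another peak of any length lay within the distance for 3228 of the 5524, or 58.4%, where 63.7% of all peaks on these chromosomes had one. Of the 5524, 2935 had a longer peak within this distance, or 53.1% (95% Wilson interval 51.8 to 54.4%), where 58.5% of all peaks on these chromosomes did. The share was 51.2% (49.9 to 52.6%) for longer peaks under 1000 bp and 52.8% at 1000 to under 1500 bp. The low share was thus not particular to the 500 bp peaks. Of the 5524, 2296 stood alone, with no peak of any length within 12500 bp, or 41.6% (40.3 to 42.9%), where 36.3% of all peaks did. Another 500 bp peak lay within the distance for 788, or 14.3% (13.4 to 15.2%), against 15.6% of all peaks. In 495 cases (8.96%) both kinds of neighbour were present, against 10.4% of all peaks. In 293 cases (5.30%) the neighbours were of 500 bp only, against 5.25% of all peaks. All such intervals cover counting error only, and peaks of 1 library are not independent replicates.

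Among the accompanied peaks, 862 (15.6% of the 500 bp peaks) lay between longer peaks on both sides within the neighbour distance. This was less than the 19.1% of all peaks and the 19.9% of longer peaks, and close to the 15.6% of longer peaks under 1000 bp. Longer peaks stood on 1 side only for 2073 (37.5%). Of all peaks, 58.5% had a longer peak within the distance, and the 19.1% with longer peaks on both sides are part of these. The rest of that 58.5% had them on 1 side only, so flanking on 1 side is not read as a trait of the 500 bp peaks. The sides were nearly equal: the nearest peak was at lower coordinates for 2718 and at higher coordinates for 2806.

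The 500 bp peaks stood alone more often than longer peaks as a whole. Of the longer peaks, 35.2% stood alone, a difference of 6.38 percentage points (95% interval 4.96 to 7.80). The difference had the same sign on each of the 20 chromosomes and averaged 6.63 points ± 3.33 (SD, n = 20 chromosomes). It ran from 0.373 points on chromosome 10 to 11.9 points on chromosome 13. The median distance to the nearest peak was 8.98 kb for the 500 bp peaks (quartiles 2.84 and 26.5 kb) and 6.85 kb for longer peaks (2.25 and 19.95 kb). This distance was likewise longer for the 500 bp peaks on all 20 chromosomes.

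Set beside the next lengths, up to under 1500 bp, however, the share of 500 bp peaks standing alone differed by less than the counting error. Of the 5564 longer peaks under 1000 bp, 43.0% stood alone, and the difference of -1.46 points had an interval from -3.30 to 0.377. Against these, the 500 bp peaks had the higher share on 7 of the 20 chromosomes, and the difference between these classes averaged -1.48 points ± 4.65 (SD, n = 20 chromosomes). Peaks of 1000 to under 1500 bp stood alone in 41.9% of cases. The share was lower in the classes above, with 38.4% at 1500 to under 2500 bp, 28.1% at 2500 to under 5000 bp and 15.7% at 5000 bp or more. The gap between the 500 bp peaks and the longer peaks as a whole lay, between edges, with the classes from 1500 bp. The interval of the difference from the next class reaches down to -3.30 points, so these classes are not shown to be alike. A neighbour within 1 kb was present for 9.34% of the 500 bp peaks (8.60 to 10.1%). It was present for 10.6% of longer peaks under 1000 bp (9.86 to 11.5%) and for 8.96% at 1000 to under 1500 bp. Of the longer peaks under 750 bp, 11.2% had such a neighbour. So close a neighbour was thus less frequent for the 500 bp peaks than for longer peaks under 1000 bp. Against peaks of 1000 to under 1500 bp the order was the opposite. Intervals of these differences were not computed, so the shares within 1 kb are not read as equal.

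**Figure D1:**
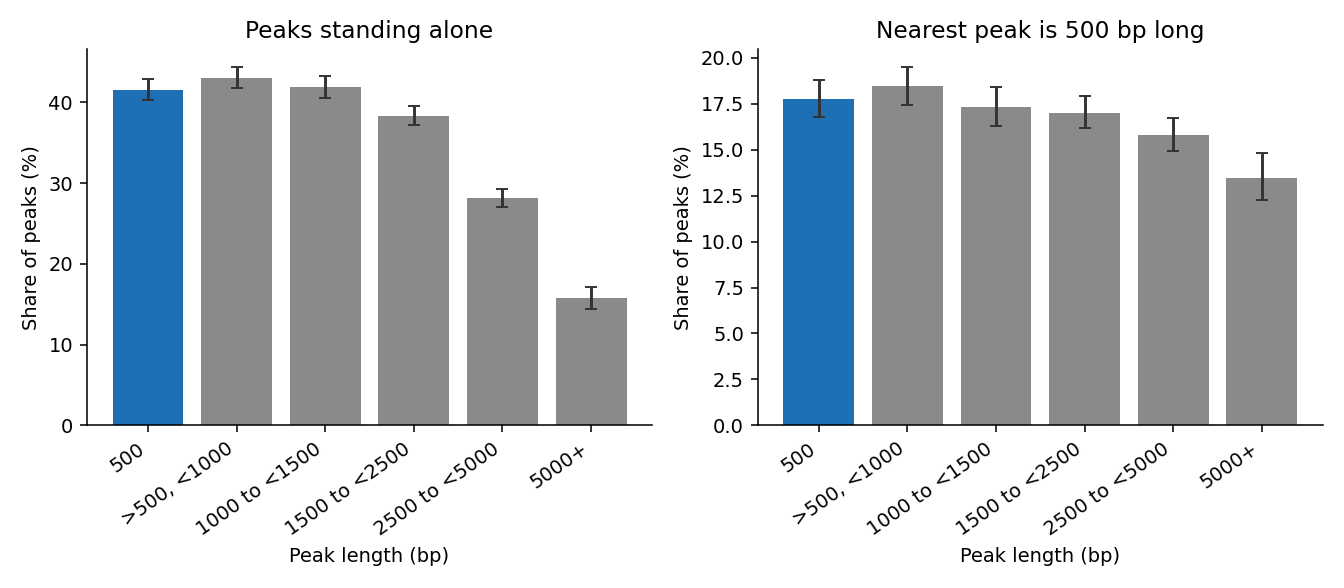
Share of peaks with no other peak within 12500 bp (left) and share whose nearest peak is 500 bp long (right), in percent, by peak length in bp on the numbered chromosomes. Bars are shares, whiskers are 95% Wilson intervals, and the 500 bp peaks are blue; at left they reach 41.6%, beside 43.0% for longer peaks under 1000 bp and 15.7% at 5000 bp or more.

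**Figure D2:**
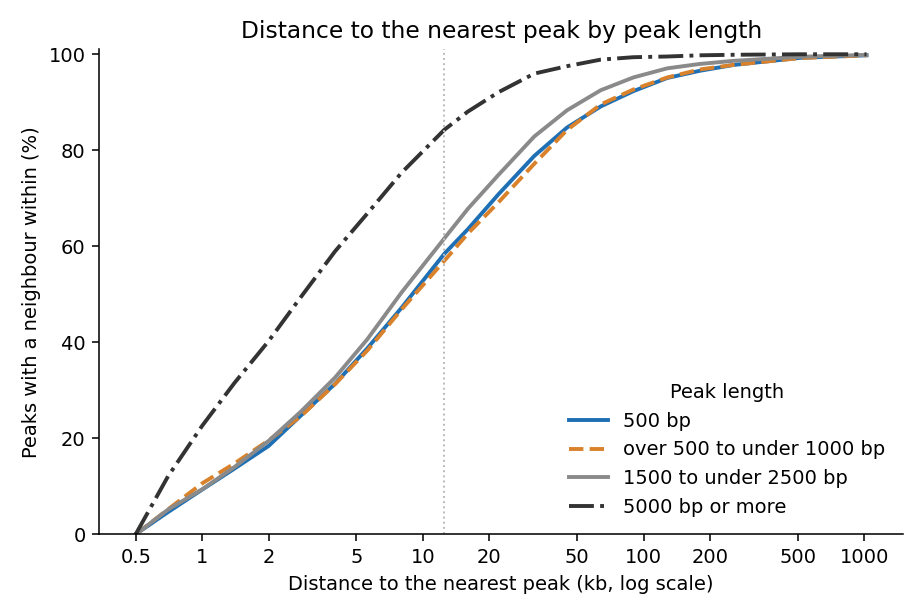
Share of peaks, in percent, with another peak within a given edge-to-edge distance in kb (log scale), for 4 classes of peak length, with the neighbour distance of 12500 bp dotted. The curve of the 500 bp peaks runs beside that of longer peaks under 1000 bp, with medians of 8.98 and 9.10 kb, and below that of peaks of 5000 bp or more, with a median of 2.89 kb; between midpoints the medians of the 500 bp peaks and the longest class were 10.4 and 9.51 kb.

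**Figure D3:**
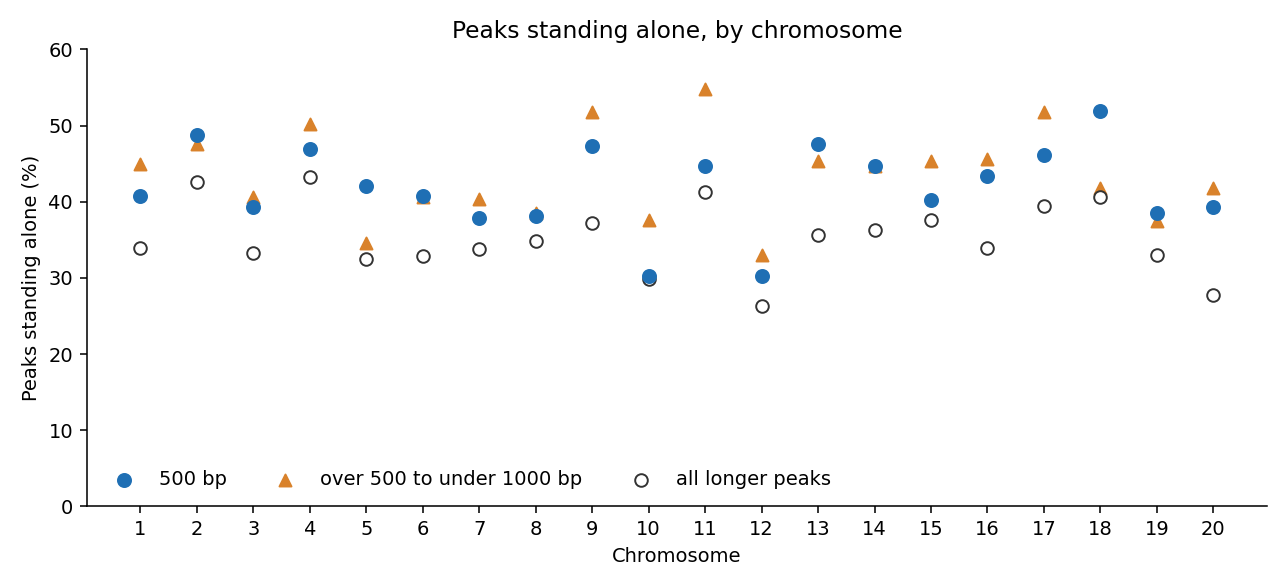
Share of peaks standing alone, in percent, on each of the 20 numbered chromosomes, for 500 bp peaks (blue circles), longer peaks under 1000 bp (orange triangles) and all longer peaks (open circles). Each blue circle lies above the open circle of its chromosome, by as little as 0.373 points, while it lies above the triangle on 7 of them.

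A longer peak takes up room on its own account, which bears on distances between edges. Measured between the midpoints of peaks, 44.4% of the 500 bp peaks had no peak within 12500 bp, compared with 45.8% for longer peaks under 1000 bp, 46.0% at 1000 to under 1500 bp, 42.9% at 1500 to under 2500 bp, 34.7% at 2500 to under 5000 bp and 32.0% at 5000 bp or more. The intervals of the 500 bp peaks (43.1 to 45.7%) and of the 1500 to under 2500 bp class (41.8 to 44.1%) overlapped, while those of both classes from 2500 bp lay below it. The median distance between midpoints was 10.4 kb for the 500 bp peaks and 9.51 kb at 5000 bp or more, far closer than the medians of 8.98 and 2.89 kb between edges. The difference in the share alone from all longer peaks was then 3.44 points (2.01 to 4.88).

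At the distances the list can show, the 500 bp peaks showed little tendency to group with each other. The smallest distance between neighbouring peaks on these chromosomes was 500 bp, so any closer grouping could not be seen. The nearest peak was of 500 bp for 981 of them, or 17.8% (16.8 to 18.8%), where this held for 16.9% of all peaks and for 16.7% of longer peaks. The ratio of the shares in 500 bp and in longer peaks was 1.06 (95% interval 0.973 to 1.16), an interval that includes equal shares. On 11 of the 20 chromosomes the share was higher for the 500 bp peaks, and the difference averaged 0.531 points ± 3.87 (SD, n = 20 chromosomes). Against longer peaks under 1000 bp the ratio was 0.963 (0.861 to 1.08). Of 4296 places next to a 500 bp peak within the neighbour distance, 16.0% were held by another 500 bp peak, compared with 15.2% of the 23698 places next to other peaks.

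Unbroken runs of 500 bp peaks were short. With each peak within 12500 bp of the previous one and no longer peak between, 4860 of the 500 bp peaks (88.0%) had no other 500 bp peak directly before or after them. Of all places next to a peak within this distance, 500 bp peaks held 15.3%. No matching share of runs was computed for other peaks, so short runs are not read as particular to the 500 bp peaks. There were 299 runs of 2, 18 runs of 3 and 3 runs of 4, and none longer. The tightest run of 4 lay on chromosome 9 from 85580362 to 85591018, with distances of 0.553, 6.94 and 1.17 kb between its peaks, and a peak of 2065 bp followed 1.41 kb farther on. A run on chromosome 2 from 41501328 to 41524007 made up a whole domain of its own, with distances of 5.08, 5.00 and 10.6 kb. The third, on chromosome 16 from 7756829 to 7782425, belonged to a domain of 5 peaks. The next runs by the same ranking had 3 peaks each: one on chromosome 4 from 191133527 to 191138327, inside a domain of 10 peaks, and one on chromosome 10 from 3537140 to 3542431, inside a domain of 8.

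Joining all peaks within the neighbour distance gave 18208 domains, of which 6524 held 2 or more peaks. A 500 bp peak was present in 2610 of these (40.0%). Of the 6524, 114 (1.75%) consisted of 500 bp peaks and nothing else, and these held 233 peaks, or 4.22% of all 500 bp peaks. They were 110 domains of 2 peaks, 3 of 3 peaks and the run of 4 on chromosome 2. In domains of 2 peaks, 17.7% of the peaks were of 500 bp. The numbers of domains expected from such shares were not computed, so these counts are not read as high or low. Among the 11684 domains of a single peak, 19.7% were of 500 bp.

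The domain richest in 500 bp peaks lay on chromosome 3 from 13235454 to 13340216, where 7 of 14 peaks had this length. Its 500 bp peaks were all in the first 10 places, starting at 13235454, 13243891, 13262026, 13263327, 13267176, 13282000 and 13292764. Peaks of 1182, 2304 and 1340 bp lay among them, and the domain ended in peaks of 3454, 2173, 7123 and 15443 bp. Short peaks thus filled one end of this domain and the longest peak closed the other. A domain on chromosome 1 (127410017 to 127463868) held 5 of 500 bp among 8 peaks, and its longest peak was 2280 bp. The other 3 named by the same rule held 4 each. One was the run on chromosome 9 with its 2065 bp peak. One lay on chromosome 5 (152001000 to 152016630), where 4 of 5 peaks were of 500 bp and the remaining one was 686 bp long. One lay on chromosome 10 (102232706 to 102250648), where a peak of 4343 bp had 500 bp peaks on both sides, 1.76 kb before it and 0.768 kb after it.

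The share of 500 bp peaks went down from domains of 2 to domains of 7 peaks. It was 17.7% in domains of 2 peaks, 16.2% in domains of 3, 13.7% in domains of 5 and 11.1% in domains of 7. In domains of 8 or more peaks it was 14.2% (95% Wilson interval 12.9 to 15.7%), above the shares at 5, 6 (13.5%) and 7 peaks (9.29 to 13.3% at 7). An interval of the difference was not computed. Of the 6808 peaks in domains of 2, 1204 were of 500 bp and 1155 were longer peaks under 1000 bp. In domains of 7 these were 106 and 129 of 952, and in domains of 8 or more 333 and 293 of 2337. A fall from domains of 2 to domains of 7 was thus not particular to the 500 bp peaks.

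Whether 500 bp peaks lay more often at the ends of domains depended on how distance was set. In domains of 3 or more peaks, 956 of 2024 were the first or last peak, or 47.2%, compared with 45.2% of longer peaks, a difference of 2.03 points (-0.320 to 4.39). By domain size the sign varied. The share was lower for 500 bp peaks in domains of 3 peaks, 63.8% against 67.2%, and in domains of 8 or more, 18.9% against 20.8%. It was higher in the sizes between: 52.9% against 49.5% in domains of 4 and 45.02% against 39.2% in domains of 5. In domains of 6 it was 36.9% against 32.8%, and in domains of 7 it was 29.2% against 28.5%. Measured between midpoints the overall difference was -2.72 points (-5.26 to -0.176), within 5 kb it was -0.626 points (-4.34 to 3.05), and within 25 kb it was 2.72 points (0.880 to 4.58). The intervals between midpoints and within 25 kb exclude 0 on opposite sides, so no direction can be given.

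**Figure D4:**
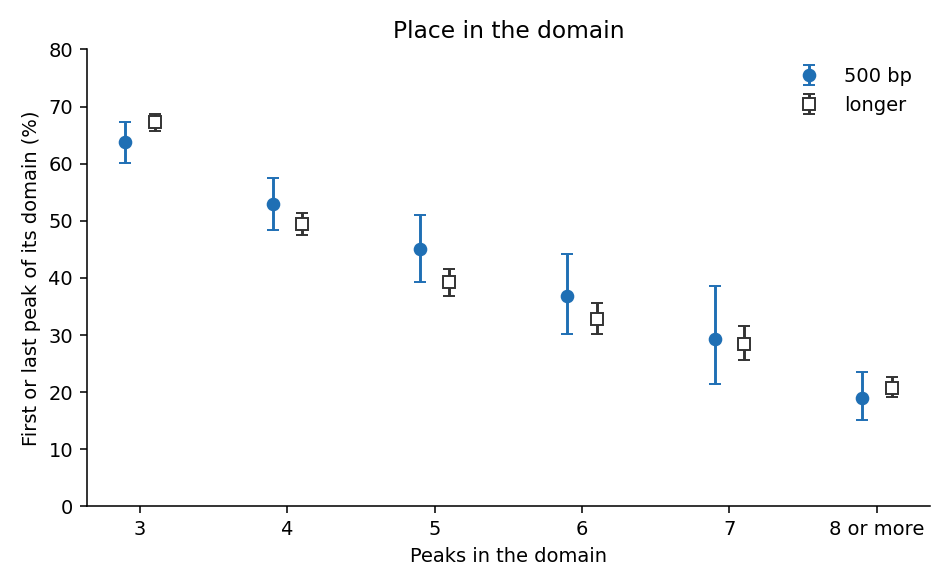
Share of peaks, in percent, that are the first or last of their domain, by the number of peaks in the domain, for 500 bp peaks (blue circles) and longer peaks (open squares), with 95% Wilson intervals. The share falls with domain size for both, from 63.8 and 67.2% in domains of 3 to 18.9 and 20.8% in domains of 8 or more.

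Among peaks over 500 bp, the longer the class, the smaller was the share of 500 bp peaks among the neighbours. Of peaks of 5000 bp or more, 20.9% had a 500 bp peak within 12500 bp, above the 14.6% of longer peaks under 1000 bp, but they also had more neighbours in all. On average they had 0.241 neighbours of 500 bp and 1.57 longer ones. As a share of all neighbours, 500 bp peaks made up 13.3% beside peaks of 5000 bp or more, 14.1% beside peaks of 2500 to under 5000 bp and 16.2% beside longer peaks under 1000 bp. Around 500 bp peaks themselves the share was 15.6%.

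Around the 10 longest peaks of these chromosomes, too few for a share to be read, a 500 bp peak lay within 12500 bp of 1, where 15.6% of all peaks and 20.9% of peaks of 5000 bp or more had one. For these 10, the median distance to the closest 500 bp peak was 38.7 kb (range 0.959 to 297.8 kb). The 1 with a close 500 bp peak was on chromosome 3, where a 500 bp peak from 11884063 to 11884562 ended 0.959 kb before a peak of 47.8 kb (11885522 to 11933360). Another, from 11961981 to 11962480, lay 28.6 kb beyond the other edge of that long peak, with 1 peak between them. On chromosome 12 a 500 bp peak (48579044 to 48579543) lay 20.1 kb from a peak of 42.3 kb, with 3 peaks in between. On chromosome 9 one from 81034876 to 81035375 lay 23.7 kb from a peak of 43.3 kb, and on chromosome 20 one from 9849020 to 9849519 lay 28.6 kb from a peak of 41.0 kb.

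Peaks of 500 bp were less frequent among peaks with a close neighbour than among remote ones. Of the 3709 peaks with a neighbour less than 1 kb away, 13.9% (95% Wilson interval 12.8 to 15.1%) were of 500 bp. The share was 14.7% at 1 to 2 kb, 16.2% at 2 to 5 kb, 16.7% from 5 kb to 12500 bp, 17.8% from 12500 bp to 25 kb and 19.7% at 25 to 100 kb. It reached 25.3% (23.1 to 27.5%) among peaks with no neighbour within 100 kb. The next class was nearly as frequent there. Of the 1491 peaks more than 100 kb from any other, 377 were of 500 bp and 364 were longer peaks under 1000 bp. These classes held 5524 and 5564 peaks in all, and 516 and 592 of them had a neighbour within 1 kb. The peak nearest to a 500 bp peak had a median length of 1747 bp when less than 1 kb away and 1215 bp when more than 100 kb away. For longer peaks the corresponding medians were 1967 and 1167 bp, so this gradient was present for both.

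Remote 500 bp peaks, more than 100 kb from any other peak, numbered 377. They were 6.82% of the 500 bp peaks (95% Wilson interval 6.19 to 7.52%), where 4.63% of all peaks on these chromosomes were as remote. Of longer peaks 4.17% were remote, of longer peaks under 1000 bp 6.54%, and of peaks of 5000 bp or more 0.539%. The most remote lay on chromosome 2 from 94123918 to 94124417, with the next peaks 4862 kb before and 3094 kb after it. It was followed by one on chromosome 18 (20271323 to 20271822), at least 2467 kb from any peak, and one on chromosome 9 (102761033 to 102761532), at least 1805 kb from any. A second on chromosome 18 (10447065 to 10447564) and one on chromosome 15 (103133420 to 103133919) were 1540 and 1397 kb from their nearest peaks.

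The wider surroundings were also close to those of the next length class, and sparser than those of the longest peaks. Within 50 kb of its edges a 500 bp peak had 3.41 other peaks on average, a longer peak under 1000 bp had 3.38, and a peak of 5000 bp or more had 5.47. The median length covered by other peaks in these flanks was 5.11 kb for 500 bp peaks, 4.87 kb for longer peaks under 1000 bp and 14.2 kb at 5000 bp or more. A peak of at least 5 kb lay within 12500 bp of 10.7% of the 500 bp peaks and of 9.92% of longer peaks under 1000 bp.

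By chromosome, the share of 500 bp peaks averaged 17.2% ± 0.992 (SD, n = 20 chromosomes). The highest shares were on chromosome 11, with 18.7% (181 of 968 peaks), and chromosome 2, with 18.6% (435 of 2338). The lowest were on chromosome 19, with 14.5% (143 of 987, 95% Wilson interval 12.4 to 16.8%), and chromosome 18, with 15.6% (152 of 976). Chromosome 19 also had the smallest share of 500 bp peaks whose nearest peak was of 500 bp, 9.09%, and chromosome 5 had the largest, 22.1%. The share standing alone ran from 30.2% on chromosome 12 to 52.0% on chromosome 18.

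The density of 500 bp peaks ran from 1.31 per Mb of span on chromosome 4 to 3.56 on chromosome 12. Across the 20 chromosomes it went with the density of longer peaks (Pearson's r 0.971, Spearman's rho 0.923), as a description over chromosomes that share 1 library. In windows of 1 Mb with 1 to 5 peaks, 23.0% of peaks were of 500 bp, and this share went down through 17.7% in windows of 11 to 20 peaks to 13.7% in windows of over 50. The most in a window were 15, on chromosome 3 both from 13 to 14 Mb, among 62 peaks, and from 169 to 170 Mb, among 51.

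The place in the file set some 500 bp peaks apart. The file is not in genomic order and gives no score, so what its order stands for is not known. Of the 93 numbered-chromosome peaks in its first 100 rows, 66 were of 500 bp, or 71.0% (95% Wilson interval 61.1 to 79.2%), against 17.0% in all later rows. The share was 53.2% in the next 100 rows, 30.1% in the third 100 and 20.8% from row 401 to row 500. From row 1001 to row 2000 it lay between 9.18 and 25.8% per 100 rows. Over 20 blocks of equal size it was 23.8% in the first, lowest in the third with 12.4%, and 21.1% in the last. The first rows were thus filled mainly by peaks of the shortest length, while the longest peak among the first 100 was 5683 bp long.

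**Figure D5:**
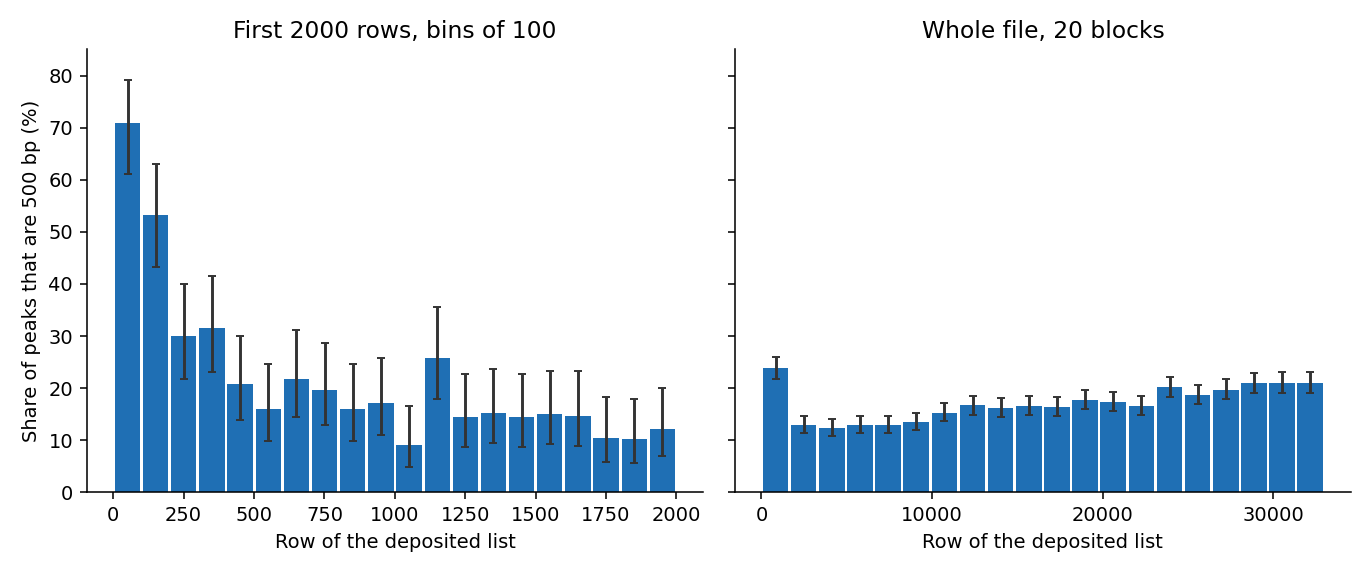
Share of numbered-chromosome peaks that are 500 bp long, in percent, by row of the deposited list, in bins of 100 over the first 2000 rows (left) and in 20 blocks over the whole list (right), with 95% Wilson intervals. The first bin reaches 71.0% and the next 53.2%; over the whole list the share goes from 12.4% in the third block to 21.1% in the last.

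These 66 peaks were spread over 19 chromosomes, with at most 8 on one, chromosome 1. The first 2 rows of the file were of 500 bp, on chromosome 7 from 13304220 to 13304719 and on chromosome 1 from 23434765 to 23435264, named here after their place was seen. Of the 66, 28 stood alone (42.4%, 95% Wilson interval 31.2 to 54.4%), a share close to the 41.6% of other 500 bp peaks. A longer peak lay within 12500 bp for 30 of the 66 (45.5%), where 53.1% of all 500 bp peaks and 58.5% of all peaks had one. No interval was computed for this share of only 66 peaks, so it is not read as a difference. The peak nearest to each of the 66 was 0.519 to 941.3 kb away, with a median of 9.91 kb, and had a median length of 1409 bp. None of these nearest peaks was itself in the first 100 rows, and their median row was 16240. Longer peaks under 1000 bp were also more frequent in the first 100 rows than later, 24.7% against 17.3%, while peaks of 5000 bp or more were fewer, 1.08% against 8.66%. What the early rows have in common besides length was not tested, since the list holds no read counts.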

How the data were processed

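The deposited file is a list of peaks in 3 columns, chromosome, start and end, without header, score or read count. The submitters' processing notes list the tools CASAVA 1.8.2, Bowtie and HOMER but no role or setting for any. Not given in the sources used here are the genome build, the threshold for peaks and the use of the input. The gene and sequence tables at hand are of GRCr8, the peaks' build is not stated, and so no gene, promoter or sequence was assigned. Depth is unknown. One base was added to each start for printing, on the BED convention.

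Peaks were sorted by position and distances, domains and runs computed with Python 3.11.15, numpy 2.4.6, pandas 2.3.3 and scipy 1.17.1, and plotted with matplotlib 3.10.9. Shares have 95% Wilson intervals, differences of shares Newcombe intervals, and medians order statistics. The interval of the nearest-neighbour ratio was widened because peaks that are each other's nearest are counted from both sides. With 1 ChIP library no test was run. The measures were tested on simulated lists with known neighbours and on lists whose distances were drawn apart from the lengths. Those lists lacked the clustering and the range of lengths of these data. They therefore do not show that the intervals hold here.

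Regions named were the 5 longest runs (ties to the shorter span), the 5 domains with most 500 bp peaks, the 5 most remote, the 5 closest to the 10 longest peaks, and the 2 chromosomes with the highest and the 2 with the lowest shares. The peaks described, these rules and the settings were chosen with earlier results of these data known. Windows, rows of the file and their peaks, and the length classes were chosen after the values were seen.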

Additional observations from a re-analysis of the deposited data

How the results depend on the processing

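Numbers of neighbours depend on the distance by construction. Within 5 kb, 63.5% of the 500 bp peaks stood alone, 32.1% had a longer peak and 6.54% another 500 bp peak beside them. Within 25 kb these shares were 26.3%, 68.9% and 24.1%. Between midpoints, 44.4% stood alone and 49.8% had a longer peak, with a median distance of 10355 bp. With the first 16498 rows alone, and so fewer peaks, 61.8% stood alone, 33.8% had a longer peak and 6.43% another 500 bp peak, with a median distance of 21092 bp. As a median over chromosomes, 13.2% had another 500 bp peak.

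The difference in the share standing alone kept its sign under both other distances, at 5.72 and 5.74 points, between midpoints (3.44 points) and with the first 16498 rows (7.37). It turned to -1.44 points against longer peaks up to 1 kb only, and to -1.001 against those under 750 bp, a setting chosen after seeing the data. The ratio of 500 bp peaks among nearest neighbours turned to 0.962 and 0.933 in those comparisons. The difference at domain ends turned in 5 settings: -0.626 within 5 kb, -2.72 between midpoints, -0.625 with the first 16498 rows, -0.487 against longer peaks up to 1 kb and -2.71 against those under 750 bp. Within 25 kb it was 2.72 points, with an interval from 0.880 to 4.58 that excludes 0. The causes were not tested. Counting the 426 bp peak with the 500 bp peaks, or leaving out the first 1000 rows as peaks compared (chosen after seeing the data), moved no result beyond its interval. No replicate could be left out, and which weak peaks depth kept off the list cannot be said without read counts. No paired analysis was possible because each group has 1 library.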
